A study of Mus musculus with 9 samples.

Results

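The ERR, PPAR, PGC-1 and RXR genes Esrra, Esrrb, Esrrg, Ppara, Ppard, Pparg, Ppargc1a, Ppargc1b, Rxra and Rxrg were followed in neonatal mouse ventricles that lacked Arid1a in cardiomyocytes. These 10 genes were chosen by name, as nuclear receptors and coactivators of cardiac energy metabolism, from the 38293 Ensembl genes of the count table. RNA-seq was performed on ventricles of mice at P7 (postnatal day 7), with 5 libraries from Arid1a f/f control littermates and 4 from aMHC-Cre;Arid1a f/f animals (cKO). All animals carried the floxed Arid1a alleles, and only the cKO animals carried the Cre recombinase, which is driven by the cardiomyocyte-specific αMHC promoter. The other cell types of the ventricle therefore kept Arid1a, whose protein is part of the chromatin remodeler SWI/SNF.

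ERR and PPAR proteins are nuclear receptors that bind DNA and switch on genes for fatty acid oxidation and mitochondrial respiration, the fuel use that the heart takes up after birth. PPARs bind together with an RXR partner, while ERRs are orphan receptors that can bind on their own. PGC-1α and PGC-1β, encoded by Ppargc1a and Ppargc1b, do not bind DNA themselves and are recruited by these receptors to activate transcription.

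Libraries held between 31011055 and 40073801 counts. A gene's level is given in CPM, its counts in every 1000000 counts of the scaled library, and differences are log2 fold changes of cKO against control from edgeR's quasi-likelihood test. A gene was said to have changed when its Benjamini-Hochberg adjusted p over the 15318 tested genes was under 0.05, and it was called when its fold change was also over 1.5. The labels number the libraries within each genotype and name no litters, so p-values measure the spread between these libraries. Arid1a was measured at 128.05 to 148.1 CPM in controls and 100.3 to 112.9 CPM in cKO libraries, and its log2 fold change was -0.39 (SE 0.06, edgeR adjusted p = 0.00132). In the 5 Rps3a3-low libraries described next it was -0.33 and did not pass (edgeR adjusted p = 0.0822). Reads of the whole Arid1a gene were counted, over all cell types and not over the floxed part alone. The libraries fell into 2 sets by the pseudogene Rps3a3, which was at 99.7 to 112.3 CPM in control replicates 3, 4 and 5 and cKO replicate 4 and at 0.345 to 0.521 CPM in the other 5. The sets hold unequal numbers of each genotype, so values within them, or in the low set alone, are given beside many of the results.

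All 10 genes were expressed highly enough to be tested. Rxrg was the only one of them that changed, and it fell. It was also the only one that was called and the only one whose control and cKO libraries did not overlap. Across all genes tested, 16.3% passed the adjusted p (8.03% as lower in cKO), 6.72% were called (2.72% as lower and 4.01% as higher) and 16.7% did not overlap between the groups, so 1 of 10 is near these backgrounds and is no result about the genes as a group. Of the 10 log2 fold changes, 4 were above 0 and 6 below, with a median of -0.06 against 0.01 over all genes tested.

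**Figure D1:**
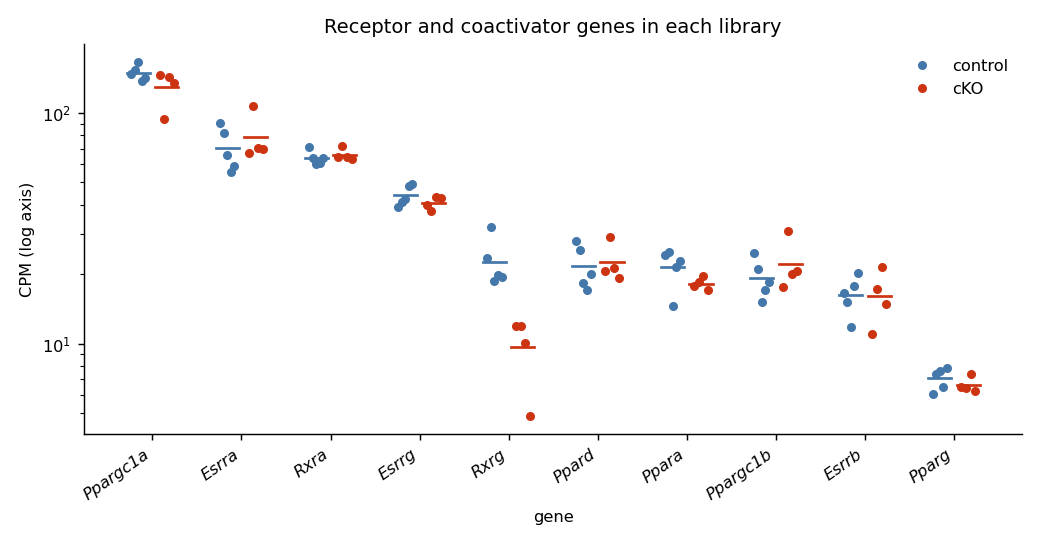
Level of each gene in each library, in CPM on a log axis, with control libraries in blue, cKO libraries in red and a line at each group's mean. The cKO libraries of Rxrg, at 4.84 to 11.98 CPM, lie below all its control libraries at 18.7 to 32.0 CPM, and for the other 9 genes the groups overlap.

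Rxrg (ENSMUSG00000015843) encodes RXRγ, the RXR that is enriched in striated muscle and other selected tissues. The gene lies on the plus strand of chromosome 1 (GRCm38, chr1:167598384-167639623). RefSeq annotates 2 start sites for it on GRCm38.p6. The 250 bases before each are printed because Rxrg is the gene that changed, with the nuclear receptor half-site AGGTCA in capitals where either strand holds it.
Rxrg start 1, chr1:167598112-167598361 (+): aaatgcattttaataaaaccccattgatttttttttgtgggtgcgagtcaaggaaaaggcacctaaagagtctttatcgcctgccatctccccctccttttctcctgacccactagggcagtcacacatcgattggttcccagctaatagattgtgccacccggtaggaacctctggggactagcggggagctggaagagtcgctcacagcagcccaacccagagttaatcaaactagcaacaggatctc
Rxrg start 2, chr1:167618015-167618264 (+): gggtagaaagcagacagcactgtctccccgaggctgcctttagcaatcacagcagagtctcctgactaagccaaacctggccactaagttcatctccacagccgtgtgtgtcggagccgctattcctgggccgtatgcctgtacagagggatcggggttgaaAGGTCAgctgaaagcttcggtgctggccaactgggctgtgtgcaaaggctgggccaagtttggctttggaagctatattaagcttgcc
The first stretch is 49.2% GC and the second 55.2%. The half-site begins 88 bases before the second start, and 14.02% of the 32851 promoters of this length in the table hold it. Neither stretch holds the ERR element TNAAGGTCA (1.138% of all promoters), the DR1 bound by PPAR-RXR pairs, which is AGGTCA repeated after 1 free base (0.03348%), the MEF2 motif, CTA and TAG with 4 free bases between them (3.202%), or GGAATG, the TEAD motif (12.64%), on either strand. The half-site is also contained in the ERR element and in the DR1. Gene counts do not show which start was used.

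In control replicates 1 to 5 the level of Rxrg was 23.5, 32.0, 18.7, 19.8 and 19.5 CPM, and in cKO replicates 1 to 4 it was 11.98, 11.90, 10.1 and 4.84 CPM. All other values per library follow the same order. Every cKO library was lower than every control library, with control replicate 2 the highest and cKO replicate 4 the lowest. These levels rest on 602 to 1105 reads per control library and 200 to 449 per cKO library. The means were 22.7 ± 5.53 CPM (SD, n = 5) and 9.70 ± 3.36 CPM (SD, n = 4). The log2 fold change was -1.23 (SE 0.27, 95% interval -1.82 to -0.64, edgeR adjusted p = 0.0109), a level 2.34-fold lower in cKO ventricles. In bulk ventricles, fewer cells that express a gene and less RNA per cell cannot be told apart.

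The fall of Rxrg was seen in both library sets. The difference of mean log2 CPM was -1.28 among the 2 control and 3 cKO libraries low in Rps3a3 and -1.98 between the 3 control libraries and the single cKO library high in it. A test of the difference between these values in edgeR gave a p of 0.0123 and an adjusted p of 0.947 over all genes, with the single cKO library of the high set, which is also the lowest in Rxrg, assumed to vary like the other libraries. Without cKO replicate 4, the lowest library, the log2 fold change was -1.004 (edgeR adjusted p = 0.00379), and without control replicate 2, the highest, it was -1.07 (edgeR adjusted p = 0.0155).

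The other RXR gene in the set, Rxra, encodes RXRα, the broadly expressed partner of the PPARs, thyroid hormone receptors and retinoic acid receptors. Rxra (ENSMUSG00000015846, chr2:27676440-27762957) was at 71.6, 64.1, 60.4, 60.6 and 64.0 CPM in controls and at 64.3, 72.2, 64.4 and 63.3 CPM in cKO libraries. The groups overlapped almost fully, and cKO replicate 2 stood above the other 3. Its log2 fold change of 0.04 (SE 0.07, 95% interval -0.11 to 0.20, edgeR adjusted p = 0.734) had an interval that did not reach that of Rxrg. Its sign turned to -0.03 once trends with GC content and length were removed and to -0.0034 without cKO replicate 2, and in the sets low and high in Rps3a3 the difference of mean log2 CPM was -0.02 and 0.04.

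The third RXR gene, Rxrb, was read from the list of RXR partners to place Rxrg within its family. Rxrb was at 39.98 to 50.7 CPM in controls and 35.9 to 46.0 CPM in cKO libraries, with a log2 fold change of -0.11 (95% interval -0.31 to 0.09, edgeR adjusted p = 0.469). It passed the test under 2 other settings, at -0.20 with library set as a term (edgeR adjusted p = 0.0423) and at -0.26 with trends of GC content and length removed (edgeR adjusted p = 0.0338). Levels of different genes are compared per kilobase of annotated exon. On that scale Rxrg made up between 27.3% and 36.3% of the summed RXR level in controls, with a median of 28.8%, and between 9.27% and 19.1% in cKO libraries, with a median of 16.8%. Rxra held 30.5% to 38.1% of the sum in controls and 43.1% to 51.0% in cKO libraries. Rxrb held 33.2% to 35.6% in controls and 37.8% to 39.8% in cKO libraries. The shares of all 3 genes did not overlap between the groups. Since the shares add up to a fixed sum, that of Rxra and Rxrb together goes up wherever that of Rxrg goes down, and the shares were given no test of their own. With the length of the longest transcript in place of all exons, the share of Rxrg was 23.8% to 31.9% in controls and 7.95% to 16.5% in cKO libraries.

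**Figure D2:**
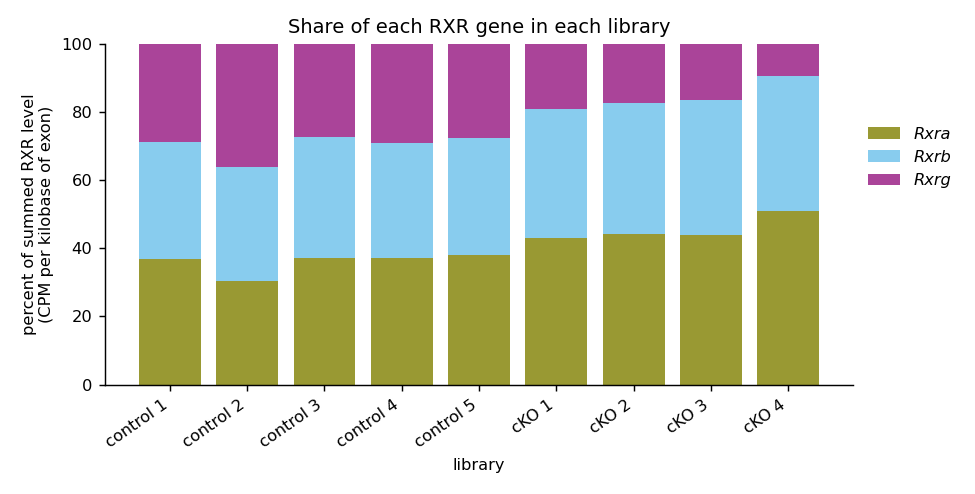
Share of Rxra, Rxrb and Rxrg in the summed RXR level of each library, in percent, from CPM per kilobase of annotated exon. The Rxrg part of the bar is at least 27.3% in every control library and at most 19.1% in every cKO library.

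The genes whose level was most like that of Rxrg over the 9 libraries, among 10735 genes at a mean of 5 CPM or more, were Lsm14b (Pearson r = 0.990 of log2 CPM), Rilp (r = 0.988) and Cdh13 (r = 0.987). Lsm14b was at 64.1 to 74.3 CPM in controls and 51.0 to 61.0 CPM in cKO libraries, Rilp at 32.6 to 43.7 and 20.3 to 29.1 CPM, and Cdh13, which encodes T-cadherin, at 216.2 to 241.1 and 165.5 to 199.0 CPM. All 3 were lowest in cKO replicate 4 and highest in control replicate 2, as Rxrg was. They were picked by likeness over these same libraries, which favours a shared order and lower levels in cKO libraries. Their log2 fold changes of -0.24, -0.50 and -0.29 were smaller than that of Rxrg, and Lsm14b no longer passed the test under 10 of the 21 other settings. These correlations cover libraries of both genotypes and describe a shared order only.

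The levels of the 10 genes in control ventricles spanned about one order of magnitude. Per kilobase of exon, Ppargc1a stood first at 22.7 ± 1.77 CPM (SD, n = 5), followed by Esrra at 16.1 ± 3.43, Rxra at 11.7 ± 0.83 and Rxrg at 9.88 ± 2.41. Esrrg at 7.09 ± 0.72, Ppara at 5.63 ± 1.09 and Ppargc1b at 4.84 ± 0.92 came next, and Ppard at 2.90 ± 0.62, Esrrb at 2.69 ± 0.52 and Pparg at 2.401 ± 0.27 were last. Most neighbours in this order overlapped between control libraries, and the breaks lay between Ppargc1a and Esrra, between Rxrg and Esrrg, and between Ppargc1b and Ppard. In cKO ventricles Rxrg, at 4.22 ± 1.46 CPM per kilobase (SD, n = 4), stood below Ppargc1b at 5.57 ± 1.46 and Ppara at 4.75 ± 0.28 and above Ppard at 3.004 ± 0.59, and its libraries overlapped those of all 3. With the longest transcript as the length, Esrra stood first in controls at 28.3 and Ppargc1a second at 23.1 CPM per kilobase, and Ppard, at 5.85, passed Ppargc1b, at 5.28.

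The PGC-1 coactivators are the inducible part of this system, and Ppargc1a responds to energy demand, cold and exercise. Ppargc1a (ENSMUSG00000029167, chr5:51454250-51567726) was at 147.7, 153.9, 167.0, 137.1 and 141.6 CPM in controls and at 145.6, 93.8, 143.9 and 135.0 CPM in cKO libraries. Apart from cKO replicate 2 at 93.8 CPM, the cKO libraries lay within or just under the control range. Its log2 fold change was -0.21 (SE 0.12, 95% interval -0.46 to 0.05, edgeR adjusted p = 0.268), and it was -0.08 without cKO replicate 2. In the sets low and high in Rps3a3 the difference of mean log2 CPM was -0.27 and -0.13. The sign did not turn under any of the 21 other settings, and none passed the test.

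Ppargc1b (ENSMUSG00000033871) encodes the related coactivator PGC-1β. It was at 24.7, 21.03, 15.2, 17.1 and 18.6 CPM in controls and at 17.5, 30.8, 19.99 and 20.6 CPM in cKO libraries. Here cKO replicate 2 was the highest library, the opposite of its place for Ppargc1a. A log2 fold change of 0.20 (SE 0.17, 95% interval -0.18 to 0.59, edgeR adjusted p = 0.477) dropped to 0.0049 without that library. The difference of mean log2 CPM was -0.04 in the set low in Rps3a3 and 0.28 in the high set. The share of Ppargc1b in the summed PGC-1 level per kilobase of exon was 13.1% to 21.6% in controls and 16.6% to 35.1% in cKO libraries.

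Esrra, encoding ERRα, is a main partner of PGC-1α on genes of the respiratory chain. Esrra (ENSMUSG00000024955, chr19:6910977-6921813) was at 90.6, 81.6, 65.7, 55.7 and 58.7 CPM in controls and at 67.4, 107.5, 70.6 and 70.1 CPM in cKO libraries. The controls were spread over a wide range, in which the cKO libraries other than replicate 2 lay. Between the genotypes the log2 fold change was 0.16 (SE 0.18, 95% interval -0.23 to 0.56, edgeR adjusted p = 0.590) and turned to -0.02 without cKO replicate 2. In the sets low and high in Rps3a3 the difference of mean log2 CPM was -0.10 and 0.23. Esrra shares 73 exon bases with Trmt112 on the opposite strand and 91 with the microRNA gene Mir6990 on its own, so part of its count is uncertain.

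Esrrg encodes ERRγ, a receptor of oxidative tissues that is required for the switch to oxidative metabolism in the newborn heart. Esrrg (ENSMUSG00000026610, chr1:187608791-188214885) was at 39.2, 41.1, 42.5, 48.4 and 49.1 CPM in controls and at 40.1, 37.5, 43.2 and 42.9 CPM in cKO libraries. Control replicates 4 and 5 were above the rest. Its log2 fold change was -0.11 (SE 0.08, 95% interval -0.29 to 0.08, edgeR adjusted p = 0.432), one of the narrower intervals of the 10 genes. In the sets low and high in Rps3a3 the difference of mean log2 CPM was 0.0028 and -0.12.

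Esrrb, encoding ERRβ, is best known from stem cells and the placenta. Esrrb (ENSMUSG00000021255, chr12:86361117-86521628) was at 16.6, 15.1, 11.8, 17.8 and 20.2 CPM in controls and at 10.98, 17.3, 21.4 and 14.9 CPM in cKO libraries, so both groups covered about the same range. Its log2 fold change was -0.01 (SE 0.19, 95% interval -0.43 to 0.40, edgeR adjusted p = 0.972), with a sign that differed between scalings and left-out libraries. In the sets low and high in Rps3a3 the difference of mean log2 CPM was 0.01 and -0.12. Within the ERR family, Esrra made up 54.2% to 69.5% of the level per kilobase of exon in controls and 60.5% to 73.4% in cKO libraries.

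Of the PPARs, Ppara encodes PPARα, the fatty acid sensor of heart and liver. Ppara (ENSMUSG00000022383, chr15:85734983-85802819) was at 24.2, 25.0, 14.5, 21.5 and 22.8 CPM in controls and at 17.8, 18.4, 19.6 and 17.1 CPM in cKO libraries. All 4 cKO libraries lay below 4 of the 5 controls, and control replicate 3 was the lowest library of all. The log2 fold change was -0.25 (SE 0.14, 95% interval -0.54 to 0.05, edgeR adjusted p = 0.256). Without control replicate 3 it was -0.36 with an edgeR adjusted p of 0.0193, the only setting of those tried in which a gene of the 10 other than Rxrg passed the test. Among the 5 libraries low in Rps3a3 the difference of mean log2 CPM was -0.40, and among the 4 high in it, which include control replicate 3, it was -0.17.

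Ppard encodes PPARδ, which also drives fatty acid use in muscle. Ppard (ENSMUSG00000002250, chr17:28232700-28301474) was at 27.9, 25.4, 18.3, 17.1 and 20.1 CPM in controls and at 20.6, 29.1, 21.4 and 19.2 CPM in cKO libraries, with control replicates 1 and 2 and cKO replicate 2 the highest. The log2 fold change was 0.05 (SE 0.16, 95% interval -0.31 to 0.41, edgeR adjusted p = 0.868), and its sign turned under several settings. In the sets low and high in Rps3a3 the difference of mean log2 CPM was -0.19 and 0.06.

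Pparg encodes PPARγ, the regulator of fat cell differentiation, and was the least expressed of the set. Pparg (ENSMUSG00000000440, chr6:115360951-115490399) was at 6.05, 7.41, 7.65, 6.48 and 7.86 CPM in controls and at 6.47, 6.42, 7.42 and 6.22 CPM in cKO libraries, which overlapped fully. Its log2 fold change was -0.10 (SE 0.12, 95% interval -0.35 to 0.16, edgeR adjusted p = 0.628), and the difference of mean log2 CPM was 0.01 and -0.23 in the sets low and high in Rps3a3. Of the fat cell markers, Adipoq, Plin1, Lep, Retn, Cidec and Cfd were at 0.492 CPM or less in every library, and the widely expressed Fabp4 did not pass the test (log2 fold change -0.06).

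Failing the test does not show that the 9 genes other than Rxrg were equal between genotypes. Their 95% intervals bound the change: for 8 of the 9, the interval lay within a fold change of 1.5 either way, and for Ppargc1b its upper end was at 1.502-fold.

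**Figure D3:**
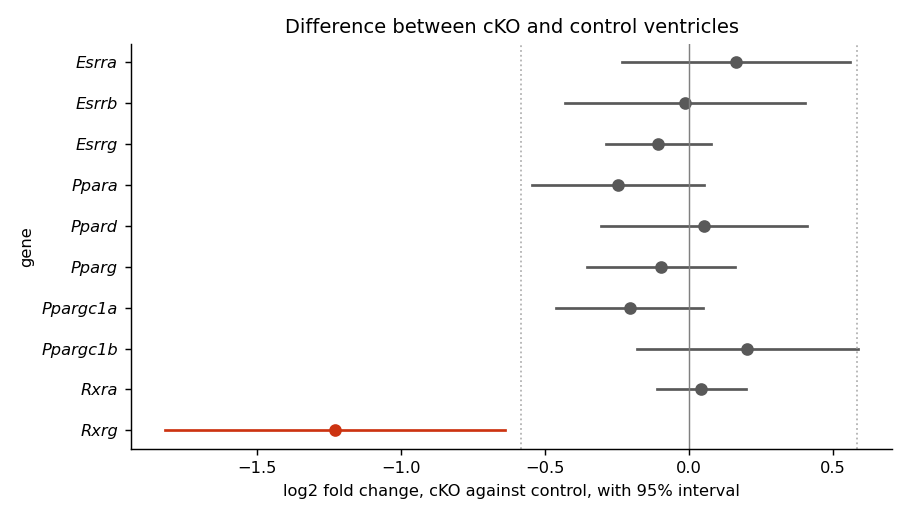
Log2 fold change of cKO against control for each gene with its 95% interval, with Rxrg in red as the gene past an adjusted p of 0.05 and dotted lines at a fold change of 1.5. The interval of Rxrg, from -1.82 to -0.64, lies beyond the dotted line, and those of the other 9 genes include 0.

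Several of these genes moved together between libraries of the same genotype. Esrra, Ppard, Ppargc1b and Rxra were highest among controls in replicate 1 and highest among cKO libraries in replicate 2, whereas Esrrg was lowest in both of these libraries. In these libraries, genes' deviations from their means correlated positively with the GC content of each gene's longest transcript. Pearson r was 0.37 in control replicate 1 and 0.47 in cKO replicate 2, across 15174 genes, which are not independent. The longest transcripts of Ppargc1b and Rxra are 57.8% and 57.0% GC, and those of Ppard and Esrra 52.2% and 50.3%. Those of Esrrg and Ppargc1a are 42.5% and 41.7% GC. Deviations (log2) from the group mean in cKO replicate 2 were 0.50 for Ppargc1b, 0.13 for Rxra, 0.14 for Esrrb (54.9% GC) and 0.38 for Rxrg (54.6%). They were 0.38 for Ppard, 0.02 for Ppara (51.5%), 0.47 for Esrra and -0.04 for Pparg (50.2%). Esrrg deviated by -0.12 there and Ppargc1a by -0.44. In control replicate 1 Ppargc1a deviated by -0.01, and Pparg was lowest among controls. Any part of GC content in these values was not tested. With trends of GC content and length removed, the log2 fold change of Ppargc1b went from 0.20 to 0.09, that of Ppargc1a from -0.21 to -0.14 and that of Esrrg from -0.11 to -0.03, while that of Esrra stayed at 0.17 and that of Rxrg was -1.30.

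**Figure D4:**
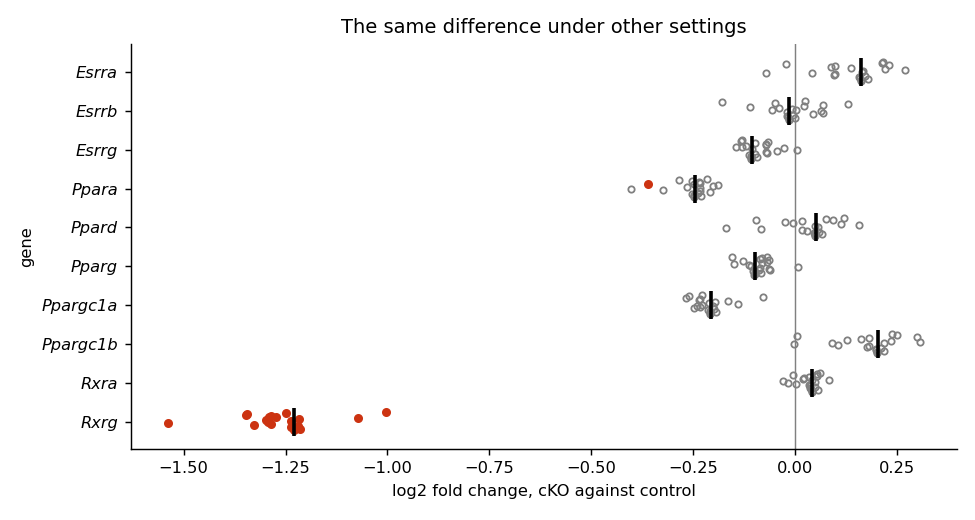
Log2 fold change of each gene under the 21 other settings, as points, with a black bar at the value reported and red points where the adjusted p was under 0.05. Rxrg stayed between -1.54 and -1.004 and passed in all 21, Ppara passed in 1, and the other 8 genes passed in none.

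The genes around the receptors were examined through 6 lists from textbook knowledge. Among 22 co-regulators of these receptors, none rose and 2 fell, and 14 log2 fold changes were below 0, with a median of -0.08. Perm1, a muscle regulator induced by PGC-1 and ERR, was at 201.9 to 234.5 CPM in controls and 162.0 to 188.2 CPM in cKO libraries (log2 fold change -0.31, edgeR adjusted p = 0.0115). Ncoa1, encoding the steroid receptor coactivator SRC-1, was at 59.0 to 68.6 and 49.4 to 56.1 CPM (log2 fold change -0.28, edgeR adjusted p = 0.0170). Of all genes tested 8.25% rose and 8.03% fell, against 0% and 9.09% in this list. Log2 fold changes were below 0 for 7423 of the 15318 genes tested. The list shares Perm1 with the ERR targets, so the lists are not independent. The count was 1 higher and 5 lower with DESeq2, the same with trends of GC content and length removed, 1 higher and 4 lower without control replicate 1, and 0 in the 5 libraries low in Rps3a3.

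Of 12 tested genes whose proteins pair with RXR or, as Rxrb, belong to its family, 3 fell and none rose (25% and 0%), with a median of -0.08. The median was -0.0061 without control replicate 2, -0.15 without cKO replicate 2 and -0.18 with library set as a term. The retinoic acid receptor gene Rarb was at 30.5 to 32.8 CPM in controls and 17.6 to 25.0 CPM in cKO libraries (log2 fold change -0.56, edgeR adjusted p = 0.00150). Thra, encoding the main thyroid hormone receptor of the heart, was at 154.0 to 186.5 and 114.2 to 139.2 CPM (log2 fold change -0.43, edgeR adjusted p = 0.00234). Vdr, the vitamin D receptor gene, was lower in level, at 1.79 to 2.90 CPM in controls and 0.291 to 0.715 CPM in cKO libraries, and was the only gene of the list called (log2 fold change -2.13, edgeR adjusted p = 0.000302). It lies under the level set for naming genes and was picked out after its values were seen. The groups did not overlap for any of these 3 genes, as for 16.7% of all genes tested. The 3 were picked from genes past the test, which favours this.

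Among 14 regulators that act on Ppargc1a or its protein, 5 fell and none rose (35.7% and 0%), and none was called. Log2 fold changes were below 0 for 13 of the 14, with a median of -0.21, against 7423 of the 15318 genes tested. The co-regulator list holds 3 of the 14 genes as well. The MEF2 factors bind the Ppargc1a promoter in muscle. Mef2c was at 119.9 to 144.5 CPM in controls and 77.4 to 100.3 CPM in cKO libraries (log2 fold change -0.52), and Mef2d at 240.8 to 265.0 and 192.1 to 205.5 CPM (log2 fold change -0.36). Camk2d, the main calcium/calmodulin kinase II of the heart, was at 307.4 to 357.3 and 226.9 to 264.8 CPM (log2 fold change -0.40). For these 3 genes the edgeR adjusted p was 0.00168, 0.000785 and 0.00147. Their groups did not overlap, which their choice from genes past the test favours (16.7% of all genes tested did not overlap). Prkaa2, a catalytic subunit of AMP-activated kinase, and Mapk14, encoding p38α, had log2 fold changes of -0.28 and -0.21 (edgeR adjusted p = 0.0359 and 0.0338), and each no longer passed under 11 of the 21 other settings. In the 5 libraries low in Rps3a3, 1 gene of the list fell and the median was -0.10. The third MEF2 gene of the list, Mef2a, had a log2 fold change of -0.11 (edgeR adjusted p = 0.339). By qPCR, the study found MEF2 and ERR genes at similar levels in both genotypes, unlike the lower Mef2c and Mef2d counts here.

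Of 16 genes of mitochondrial biogenesis, the classical downstream arm of PGC-1α, 1 fell and none rose (6.25% and 0%), with a median of -0.12. That gene, Gabpa, encodes the DNA-binding subunit of NRF-2 and had a log2 fold change of -0.27 at an edgeR adjusted p of 0.0493, and it no longer passed under 12 of the 21 other settings, among them the 5 libraries low in Rps3a3, where none of the 16 genes passed. Tfam, the packaging factor of mitochondrial DNA, had a log2 fold change of -0.13 (edgeR adjusted p = 0.285) and Nrf1 one of -0.07 (edgeR adjusted p = 0.568).

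Among 30 tested PPAR target genes, 3 rose and 5 fell (10% and 16.7%), with a median of -0.02. In the 5 libraries low in Rps3a3 alone, 4 rose and 2 fell and the median was 0.12, so that both the balance and the sign turned. With 1 library left out the median lay between -0.074 without cKO replicate 1 and 0.0076 without cKO replicate 4. Fabp3, the fatty acid binding protein of heart muscle, rose from 1420 to 1671 CPM in controls to 2002 to 2200 CPM in cKO libraries (log2 fold change 0.43, edgeR adjusted p = 0.000820). The lipid droplet gene Plin2 rose with a log2 fold change of 0.39. The peroxisome division gene Pex11a was the only one called, with means of 16.3 ± 2.39 CPM (SD, n = 5) in controls and 8.97 ± 0.55 CPM (SD, n = 4) in cKO libraries (log2 fold change -0.87, edgeR adjusted p = 0.000355). The acyl-CoA dehydrogenase genes Acadm and Acadl, the auxiliary isomerase gene Ech1 and the lipoprotein receptor gene Vldlr fell with log2 fold changes of -0.46, -0.37, -0.38 and -0.39. Some widely used PPAR readouts did not pass: Pdk4 had a log2 fold change of 0.13 (edgeR adjusted p = 0.845), Angptl4 one of 0.46 (edgeR adjusted p = 0.434) and Ucp3 one of -0.03 (edgeR adjusted p = 0.937). In the 5 libraries low in Rps3a3, Angptl4 passed with a log2 fold change of 1.33 (edgeR adjusted p = 0.0168), and that of Pdk4 was 0.97 without passing.

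Among 21 tested ERR target genes, 1 rose and 7 fell (4.76% and 33.3%), with a median of -0.07. With 1 library left out the median lay between -0.052 without control replicate 2 and -0.12 without cKO replicate 2 or control replicate 5, and in the 5 libraries low in Rps3a3 it was -0.17, with 1 gene higher and 5 lower. The list shares 4 genes with the PPAR list, among them Acadm and Fabp3, the gene that rose. Ckmt2, the mitochondrial creatine kinase of striated muscle, was called, at 550.6 to 744.5 CPM in controls and 250.4 to 398.4 CPM in cKO libraries (log2 fold change -0.99, edgeR adjusted p = 0.000575). The potassium channel gene Kcnq1 was called as well, at 55.7 to 70.4 and 34.6 to 47.1 CPM (log2 fold change -0.59, edgeR adjusted p = 0.00147). Kcnq1 passed the adjusted p in all 21 other settings but lay at or under the fold change of 1.5 in 6 of them, down to -0.52 without cKO replicate 4. The citrate cycle genes Fh1 and Idh3a, the ATP synthase gene Atp5b and Perm1 fell with log2 fold changes of -0.32, -0.25, -0.31 and -0.31, and Acadm was the seventh. The respiratory chain genes Sdhb and Cox5b had log2 fold changes of -0.0040 and -0.04, neither past the test.

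**Figure D5:**
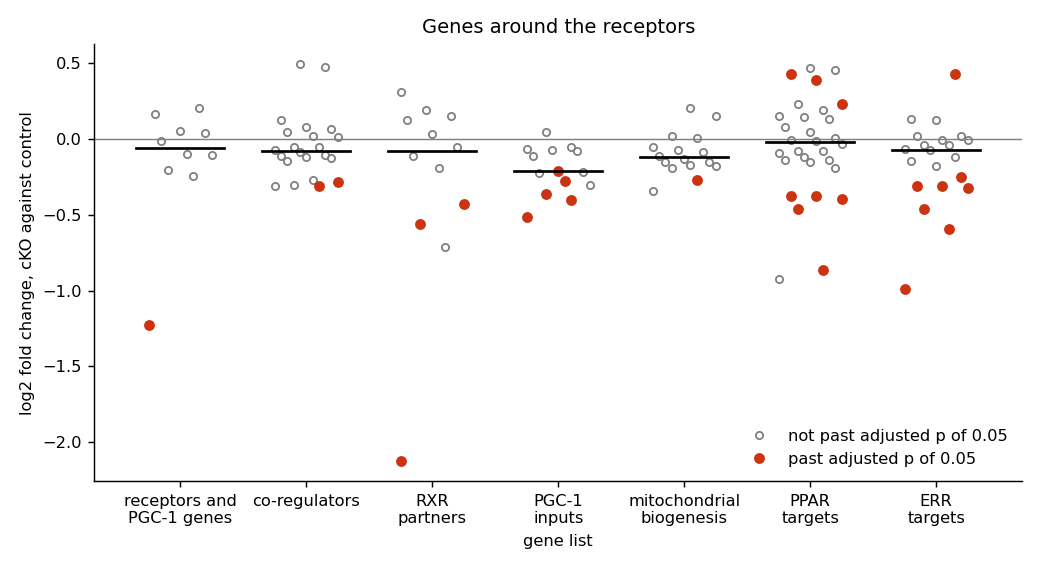
Log2 fold change of cKO against control for each tested gene of the receptor set and of the 6 lists, with filled red points past an adjusted p of 0.05, open points otherwise and a black line at each list's median. The list medians lie between -0.21 for the regulators of Ppargc1a and -0.02 for the PPAR targets, and the lowest points are Vdr at -2.13 and Rxrg at -1.23.

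Cell type markers were set beside these values. The cardiomyocyte markers summed to 47176 to 56553 CPM in controls and 43935 to 48541 CPM in cKO libraries, 7 of 8 log2 fold changes were below 0 with a median of -0.14, and 1 of 8, the calcium pump regulator Pln, fell (log2 fold change -0.45), though not in the 5 libraries low in Rps3a3 (-0.35, edgeR adjusted p = 0.162). Fibroblast markers summed to 4400 to 4998 and 5646 to 6006 CPM, and 4 of 8 rose. Of the endothelial markers 1 of 8 fell, and of 8 macrophage and 7 erythroid markers none passed, although all had positive log2 fold changes. Their part in the fall of Rxrg was not tested. The skeletal muscle myosin genes Myh1, Myh2 and Myh4 were near 0, and Acta1, which the newborn heart also expresses, rose (log2 fold change 2.18) but did not pass under 13 of the 21 other settings. Of the 5 skeletal muscle markers tested, 4 had positive log2 fold changes, with a median of 0.75. Tnnt3, Mylpf and Tnni2, at 4.003 CPM or less in every library, did not pass, and the groups did not overlap for Tnnt3 (0.62, edgeR adjusted p = 0.0529) and Mylpf (0.75, edgeR adjusted p = 0.0705). Of the brown fat markers, Elovl3 was near 0, Ucp1 reached 4.92 CPM in cKO replicate 3 and at most 0.55 CPM elsewhere, and Cidea and Dio2 rose with log2 fold changes of 0.90 and 3.12. Dio2, which makes active thyroid hormone, was at 6.51 to 9.09 CPM in controls and 39.98 to 79.5 CPM in cKO libraries.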

How the data were processed

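Total RNA of P7 mouse ventricles was sequenced by the authors with a stranded mRNA kit as single-end reads of 75 bases. The authors deposited raw counts per Ensembl gene in 1 table. The submitters' processing notes name STAR 2.4.2a, HTSeq 0.6.1 and mm10, while the gene models and whether counting used strand are not given in the sources used here, so overlapping and antisense genes are uncertain. The study gives the number of controls differently in its methods and in a legend, and all 5 labelled controls were used.

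Symbols, coordinates and exon lengths came from GENCODE M21 on GRCm38, which named 36429 of 38293 genes and 99.8% of counts, and promoters from RefSeq on GRCm38.p6, which matched 9 of the 10 genes. No protein sequences were used here. Counts were tested in R 4.3.3 with edgeR 4.0.16 (filterByExpr with a minimum count of 10, TMM scaling, robust quasi-likelihood F test, genotype as the only term, two-sided). Intervals and SE derive from the F statistic and cover the spread between libraries. The thresholds follow the study's methods, which used DESeq2. DESeq2 1.42.0, other scalings and filters, a replicate block, library set, Xist level, GC content and length, and each library left out were alternatives. The edgeR and DESeq2 steps were tested on simulated data.

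From each of the 6 pathway lists, up to 4 genes past the adjusted p with the largest change and a mean of 5 CPM or more were named, with all 10 members, Arid1a, the 3 genes most like any member past the test, and markers. Other list genes named were chosen after their values were seen, and the results of some single genes are not reported here. The members and lists were chosen with earlier results of these data known.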

Additional observations from a re-analysis of the deposited data

Results flagged for a closer look

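Each of the 10 genes was examined for single libraries far from the rest of their group, and 3 of 20 groups held one by Dixon's test at the 95% level, where chance flags about 1 in 20. Esrra stood apart in cKO replicate 2, at 107.5 CPM against 67.4 to 70.6 CPM in the other cKO libraries. Rxra stood apart in the same library, at 72.2 CPM against 63.3 to 64.4 CPM. Ppara stood apart in control replicate 3, at 14.5 CPM against 21.5 to 25.0 CPM in the other controls.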

How the results depend on the processing

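Rxrg kept its direction and its side of the threshold under all 21 alternatives, with log2 fold changes from -1.54 (library set as a term) to -1.004 and edgeR or DESeq2 adjusted p up to 0.0322. The GC and length correction and the counterpart of the block were chosen after seeing the data. In the 5 libraries low in Rps3a3 alone, 620 genes were called in place of 1030, and the log2 fold changes of Esrra, Esrrb, Esrrg, Ppard, Pparg, Ppargc1b and Rxra turned to -0.071, 0.065, 0.0050, -0.17, 0.0081, -0.0020 and -0.018. There the median became -0.033 for co-regulators, -0.10 for the regulators of Ppargc1a, -0.040 for mitochondrial biogenesis, 0.12 for PPAR targets and -0.17 for ERR targets, and 0, 1 and 0 genes of the first 3 lists passed. Fewer samples entered that fit. Ppard turned to -0.084 with library set as a term, Esrrb to 0.00020 with upper quartile scaling and 0.0025 with Xist level as a term, and Rxra to -0.030 with GC and length trends removed, where the regulators of Ppargc1a had a median of -0.14. The co-regulators had 6 genes past the test with DESeq2 (1 of them higher), 4 with RLE scaling, 4 without the 10 most abundant genes in the scaling and 6 with GC and length trends removed. The regulators of Ppargc1a had 3 with Xist level as a term. Mitochondrial biogenesis had 0 with upper quartile scaling, library set or Xist level and 2 with GC and length trends removed. The causes were not tested. The scalings moved the median over all genes by at most 0.014.

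With 1 library left out, 909 to 1171 genes were called and 1 to 2 of the 10 genes passed, the second being Ppara without control replicate 3. The count past the test was 2 to 5 for co-regulators, 3 to 6 for the regulators of Ppargc1a and 0 to 2 for mitochondrial biogenesis. The 5 co-regulators came without control replicate 1, and the 3 regulators without control replicate 3, 4 or 5 or cKO replicate 2, 3 or 4. Mitochondrial biogenesis had 2 without control replicate 1 and 0 without control replicate 3, 4 or 5 or cKO replicate 3 or 4. Log2 fold changes spanned -0.023 to 0.27 for Esrra, -0.18 to 0.13 for Esrrb, -0.10 to 0.16 for Ppard and -0.0034 to 0.085 for Rxra. Of the named genes of the 6 lists that passed the test, none changed sign, and apart from Prkaa2, Mapk14 and Gabpa each missed the adjusted p in at most 3 of 21 settings. Of the named genes that did not pass, signs turned for Tfam (0.0058) and Ucp3 (0.39) in the 5 libraries low in Rps3a3, Ucp3 with library set as a term (0.13), Sdhb with upper quartile scaling (0.011) and a filter at a mean of 1 CPM (0.0041), and Fabp4 in the low libraries (0.077) and with GC and length trends removed (0.0084). With 1 library left out, Pdk4 spanned -0.024 to 0.39, Ucp3 -0.15 to 0.13, Sdhb -0.065 to 0.047 and Cox5b -0.082 to 0.022.

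Same-numbered control and cKO libraries deviated together at r of 0.01 to 0.23, over 0.1 in 1 of 4 pairs, so the numbers were not taken to pair animals. With the replicate block, 879 genes were called, against 933 in the same 8 libraries without it. Rxrg was at -1.33 (edgeR adjusted p = 0.00430), Esrrb at 0.044 with and 0.069 without the block, and 3 regulators of Ppargc1a and 0 genes of mitochondrial biogenesis passed in both. Of the 4 controls with a cKO library of the same number, 1 correlated best with it.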
